A study of Mus musculus with 12 samples.

Results

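Spi1, Irf8, Irf5, Maf, Cebpa, Cebpb, Runx1 and Tfec, 8 transcription factors that act in the myeloid lineage, were followed in bulk RNA of orthotopic 4T1 tumors. They were taken by gene symbol from a table of 55401 genes, and all 8 passed the filter on low values that left 15504 genes for testing. The tumors were grown from 4T1, a mammary carcinoma line of the mouse, in immunocompetent Balb/c hosts (bought at 6 to 8 weeks of age per the study's methods) and were treated with 1 of 4 proteins. Control mice received an IgG1-Fc isotype protein, IL-10-Fc mice interleukin-10 joined to an Fc part, aCSF1R mice an antibody against CSF1R (the receptor of colony stimulating factor 1), and BF10 mice that antibody with human interleukin-10 fused to it. Each group had 3 tumors with 1 library each, numbered as in the sample titles, and nothing in the labels says that they came from separate experiments, so p-values measure the spread between these tumors. Treatment began at a tumor volume of 100 mm3 and was repeated within each week; the labels give 6 doses and the study's methods 4, so the number is uncertain.

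The 8 genes encode factors that direct how blood progenitors become monocytes, macrophages and granulocytes and how those cells respond afterwards. PU.1, the product of Spi1, is an ETS factor that opens enhancers of macrophage genes, among them the gene for CSF1R, and it pairs with IRF8 on composite sites. CEBPA acts in granulocyte and monocyte progenitors, CEBPB in inflammatory responses, and RUNX1 from blood stem cells onward, though CEBPB and RUNX1 are also found in epithelial cells. MAF and IRF5 shape what mature macrophages secrete, and TFEC belongs to the MITF family and is found mainly in macrophages. CSF1 signalling through CSF1R keeps many tissue macrophages alive.

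The promoters of these genes differ in sequence, and those of Tfec, Cebpa and Runx1 are shown as examples. Tfec and Cebpa had their lowest and Runx1 its highest mean level in aCSF1R. Irf5 also had its lowest mean there, and its promoter is not shown. RefSeq (build GRCm38.p6) gave promoters of 250 bases before to 50 bases after a start for 6 of the 8 genes, with 2 starts each for Irf8 and Runx1; Spi1 and Maf were not matched. Capitals mark matches, on either strand, to a PU.1 box (GAGGAA), a core RUNX motif (TGTGGT) or an E-box of the MITF family (CACGTG). The Tfec promoter is chr6:16898392-16898691 on the minus strand, the Cebpa promoter chr7:35119043-35119342 on the plus strand, and the upstream and downstream Runx1 promoters are chr16:92826025-92826324 and chr16:92697280-92697579 on the minus strand.

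Tfec: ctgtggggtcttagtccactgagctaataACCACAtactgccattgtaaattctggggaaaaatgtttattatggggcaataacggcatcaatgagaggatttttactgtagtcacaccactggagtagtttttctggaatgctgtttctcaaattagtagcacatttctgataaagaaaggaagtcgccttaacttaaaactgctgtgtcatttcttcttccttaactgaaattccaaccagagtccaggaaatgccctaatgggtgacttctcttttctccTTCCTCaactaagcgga

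Cebpa: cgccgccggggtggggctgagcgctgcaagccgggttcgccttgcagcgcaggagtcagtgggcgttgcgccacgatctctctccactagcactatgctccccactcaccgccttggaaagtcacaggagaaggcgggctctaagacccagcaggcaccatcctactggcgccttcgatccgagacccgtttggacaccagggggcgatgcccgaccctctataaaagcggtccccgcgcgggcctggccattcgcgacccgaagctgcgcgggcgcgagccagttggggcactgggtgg

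Runx1, upstream: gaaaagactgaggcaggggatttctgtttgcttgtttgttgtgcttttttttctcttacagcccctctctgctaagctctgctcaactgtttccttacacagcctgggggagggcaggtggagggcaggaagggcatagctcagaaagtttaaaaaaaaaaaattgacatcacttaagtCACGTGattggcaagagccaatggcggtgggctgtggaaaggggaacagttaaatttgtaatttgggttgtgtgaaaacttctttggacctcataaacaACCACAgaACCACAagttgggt

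Runx1, downstream: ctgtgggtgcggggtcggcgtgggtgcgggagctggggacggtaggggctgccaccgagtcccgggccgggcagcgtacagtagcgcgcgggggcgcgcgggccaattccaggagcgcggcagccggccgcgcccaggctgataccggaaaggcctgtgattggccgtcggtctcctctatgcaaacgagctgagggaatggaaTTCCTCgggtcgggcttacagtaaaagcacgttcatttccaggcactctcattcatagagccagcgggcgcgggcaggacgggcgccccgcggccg

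Positions are counted from the start base, which is 0. The Tfec promoter held a PU.1 box at 33 to 38 and a RUNX motif at -221 to -216. The upstream Runx1 promoter held RUNX motifs at 28 to 33 and 36 to 41, inside the transcribed part, and an E-box at -71 to -66, and the downstream one held a PU.1 box at -46 to -41. The second Irf8 promoter held a core Maf motif (TGCTGA) at -157 to -152. No match stood in the promoters of Cebpa, Cebpb and Irf5 or in the other Irf8 promoter, which says only that these letters are not in these windows.

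The search also covered the C/EBP palindrome TTGCNNAA, the interferon response core and the ETS-IRF composite element, which matched no promoter of the 8 genes. Among 32851 promoters of the same length, 28.3% held GAGGAA, 16.8% TGTGGT, 19.5% TGCTGA, 7.15% CACGTG, 10.8% TTGCNNAA, 3.44% the interferon response core and 2.72% the ETS-IRF composite element. The PU.1 box and the RUNX motif were therefore frequent in any promoter. Base composition separated the promoters more clearly. The Tfec promoter had 40.3% G and C with 3 CpG dinucleotides, and the upstream Runx1 promoter had 45% with 2. By contrast the Cebpb promoter had 80.7% with 50 CpG dinucleotides, the Irf5 promoter 74.7% with 35 and the Cebpa promoter 67.3% with 29.

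The libraries fell into sets that did not follow the treatments, and most of these factors differed between the sets. The deposited values (FPKM, fragments per kilobase of transcript, scaled to the sequenced fragments) summed to 782919 to 921581 in 5 libraries, called higher-sum here (control 4 and 7, IL-10-Fc 7, aCSF1R 8 and BF10 6), while the remaining 7 libraries, called lower-sum, had sums of 609695 to 648413. The share of the sum from mitochondrial genes was 5.90% to 9.26% in the higher-sum and 3.14% to 3.96% in the lower-sum libraries. Read depth is not given with FPKM values; the spacing of low values put the libraries at 0.976 to 1.06 of the median depth. Since the control group held 2 higher-sum libraries and every other group 1, a second fit held the library set as a term, and its values are given beside those of the fit without it wherever they change a call. To put the libraries on 1 scale, FPKM values were rescaled to a total of 1000000 in each (TPM), and tests were run with limma on log2(TPM + 1), a scale that understates changes of genes with low values. A gene passed the threshold at a Benjamini-Hochberg adjusted p below 0.05 over all 15504 genes and a change of at least 1.5-fold.

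In a model that also held the treatments, 6 of the 8 factors differed between the library sets past the threshold, beside 59.2% of all tested genes. Irf8 had the largest difference, lower in the higher-sum libraries by a log2 difference of -1.63 ± 0.25 (SE). It was -1.07 ± 0.19 for Maf, -1.04 ± 0.15 for Irf5, -0.92 ± 0.13 for Runx1 and -0.76 ± 0.22 for Spi1. Cebpb went the other way, at 0.66 ± 0.14. Cebpa (-0.09 ± 0.28, adjusted p = 0.777) and Tfec (0.03 ± 0.15, adjusted p = 0.866) did not pass. Tfec and Cebpa thus had the smallest set differences in this model. For both genes that value averaged opposite directions. Tfec was at 9.26 and 8.50 TPM in the higher-sum controls against 6.97 TPM in the lower-sum one. In IL-10-Fc it was at 5.33 TPM in the higher-sum library against 6.77 and 5.94 TPM. For Cebpa the higher-sum libraries lay above the lower-sum ones in control (20.6 and 27.4 against 14.5 TPM) and in BF10. They lay below them in aCSF1R (2.79 against 9.66 and 7.43 TPM) and in IL-10-Fc.

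**Figure D1:**
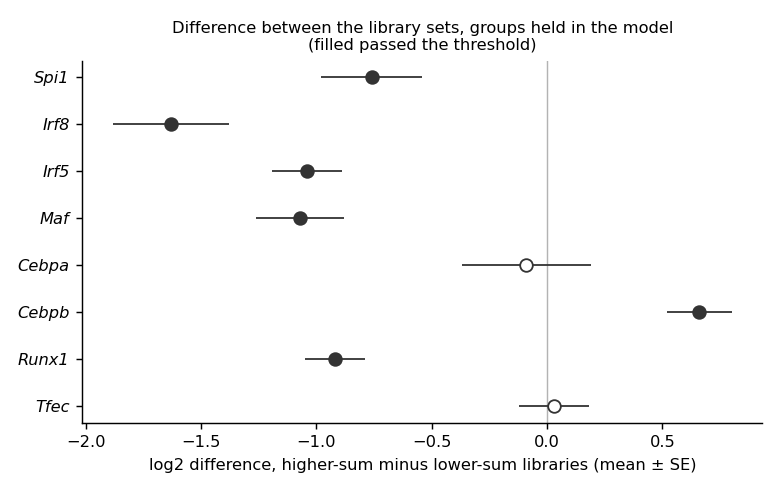
Log2 difference in log2(TPM + 1) between the 5 higher-sum and the 7 lower-sum libraries for each factor, with the treatment groups held in the model. Points are estimates and bars 1 SE; filled points passed the threshold, and Tfec and Cebpa sit near 0 while Irf8 is at -1.63.

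Levels per length ranged widely among the factors. Cebpb was the most abundant in every library, at 169 to 440 TPM and between rank 291 and rank 911 of all genes. In control tumors the group means were 301 ± 86.7 TPM for Cebpb (SD, n = 3 in each group), 35.2 ± 16.6 for Runx1, 34.5 ± 11.8 for Spi1 and 31.7 ± 21.1 for Irf8. They were 20.8 ± 6.45 for Cebpa, 17.8 ± 7.76 for Irf5, 9.38 ± 4.09 for Maf and 8.25 ± 1.17 for Tfec. The factors from Runx1 to Irf5 in this order lay within the larger SD of their neighbors in that order, as did Maf and Tfec.

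**Figure D2:**
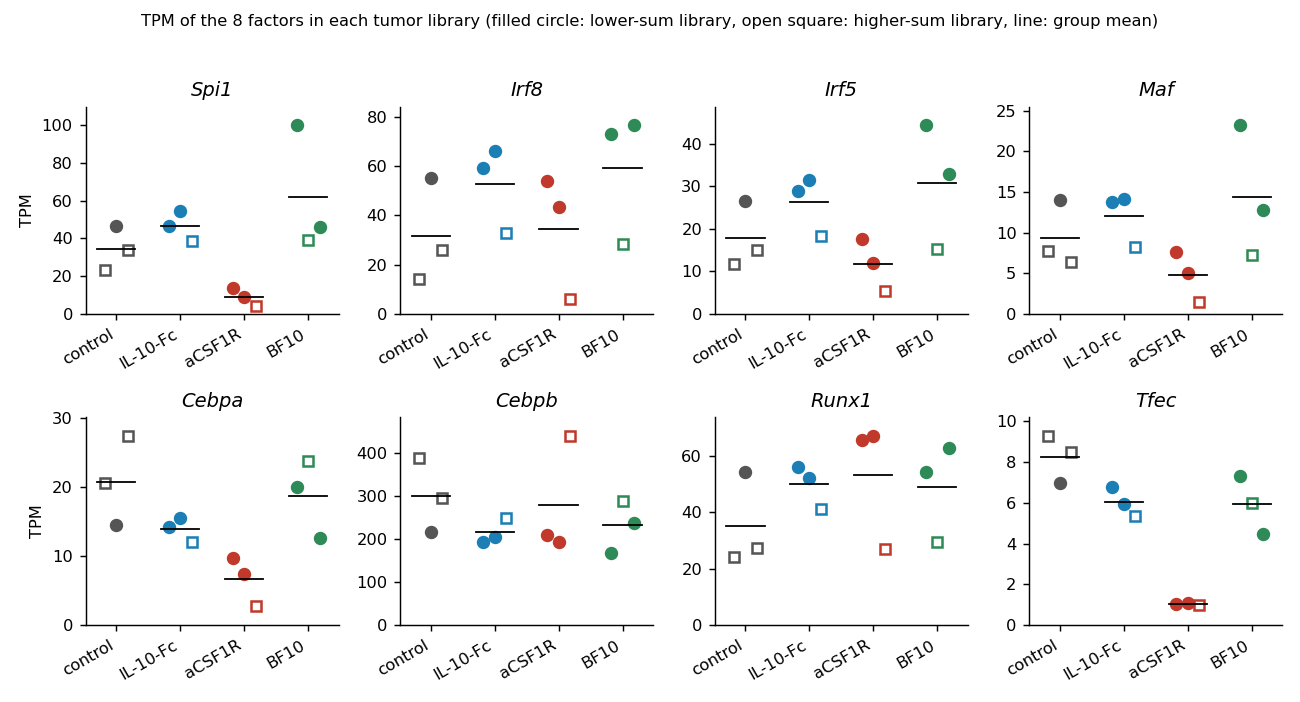
TPM (vertical axis, from 0) of each factor in the 12 libraries, 3 per treatment group. Filled circles are lower-sum and open squares higher-sum libraries, and lines are group means; the aCSF1R libraries form the lowest group for Spi1, Cebpa and Tfec, and the open squares lie low within each group for Irf8.

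The comparison of aCSF1R with control asked what the antibody alone did to the factors. Tfec fell, and it was the only 1 of the 8 factors past the threshold, beside 0.568% of all tested genes that were lower in aCSF1R. The groups did not overlap for Spi1, Cebpa and Tfec, 3 of 8 factors, beside 5.28% of all tested genes. In the fit with the library set, Spi1, Irf5 and Maf were also lower past the threshold, which made 4 of 8 beside 1.93% of all genes. Irf8, Cebpa, Cebpb and Runx1 passed in neither fit. In bulk tissue, fewer cells of a type and less RNA per cell cannot be told apart. The median log2 difference of all tested genes was 0.24 without and 0.0068 with the set term, and that of the 8 factors was -0.78 and -1.14. The differences are given as fitted, and the median of all genes was not subtracted from them.

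Tfec, the MITF relative, stood at 9.26, 6.97 and 8.50 TPM in control libraries 4, 5 and 7 and at 1.01, 1.07 and 0.998 TPM in aCSF1R libraries 4, 6 and 8. Every aCSF1R library was below every control library, and the aCSF1R libraries of both sets lay at nearly the same level. Its log2 difference was -2.18 ± 0.25 (adjusted p = 0.00249), and the aCSF1R mean was 12.4% of the control mean. The adjusted p was 0.000164 with the set term and stayed below 0.05 when any 1 of the 12 libraries was left out (0.00407 to 0.0197). The values near 1 TPM were 12.1% to 12.9% of the control mean. The 3 genes whose levels followed Tfec most closely over the 12 libraries, after centring each library set, were Svbp (r = 0.986), Arg1 (r = 0.984) and Hal (r = 0.981); they share libraries and group means with it, so the likeness carries no p. Arg1, the arginase of alternatively activated macrophages, averaged 258 ± 97.4 TPM in control and 53.3 ± 27.8 TPM in aCSF1R.

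Spi1, the gene for PU.1, stood at 23.2, 46.7 and 33.6 TPM in control and at 13.9, 8.96 and 4.47 TPM in aCSF1R. All 3 aCSF1R values were below the lowest control value. The log2 difference was -1.87 ± 0.44, with an adjusted p of 0.161 without and 0.0027 with the set term (-2.13 ± 0.30). It was -1.97 among the lower-sum libraries (control 5 against aCSF1R 4 and 6) and -2.40 among the higher-sum ones (control 4 and 7 against aCSF1R 8), so it was lower in aCSF1R within both sets. It also passed with FPKM left unscaled (adjusted p = 0.0147) and with median-of-ratios scaling (adjusted p = 0.00562), in all in 4 of 21 alternatives. It passed in 0 of 12 fits that left out 1 library (adjusted p = 0.104 to 0.541), and over all alternatives the difference ran from -2.21 to -1.06 with an adjusted p of up to 0.765. The nearest genes by level were Trem2 (r = 0.993), Nckap1l (r = 0.992) and Arrb2 (r = 0.992) over 12 libraries; Trem2, a lipid receptor of macrophages, averaged 25.3 ± 11.3 TPM in control and 5.43 ± 3.52 TPM in aCSF1R.

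Cebpa stood at 20.6, 14.5 and 27.4 TPM in control and at 9.66, 7.43 and 2.79 TPM in aCSF1R. The groups did not overlap, yet the call was not made in either fit. On the log2 scale it differed by -1.60 ± 0.41 with an adjusted p of 0.249, and -1.63 ± 0.39 with an adjusted p of 0.0693 under the set term. The difference was -0.71 within the lower-sum libraries, where control 5 was the only control. It was -2.71 within the higher-sum libraries, where aCSF1R 8 was the only aCSF1R library. Each value thus rests on a single library on 1 side, and the difference between the sets was not tested. The nearest genes of Cebpa were Rnf130 (r = 0.963), Tlr7 (r = 0.945) and Apoe (r = 0.933).

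Maf and Irf5, which act in mature macrophages, had lower group means in aCSF1R, but their libraries overlapped with control. Maf was at 7.72, 14 and 6.38 TPM in control and at 7.67, 5.10 and 1.52 TPM in aCSF1R. Irf5 was at 11.8, 26.5 and 15.1 TPM in control and at 17.6, 12.1 and 5.46 TPM in aCSF1R. In both genes 1 or more aCSF1R libraries of the lower-sum set reached the level of higher-sum controls. Without the set term the log2 difference was -0.95 ± 0.53 for Maf and -0.61 ± 0.49 for Irf5, each with an adjusted p of 0.893. With the term Maf was at -1.31 ± 0.26 (adjusted p = 0.024) and Irf5 at -0.96 ± 0.21 (adjusted p = 0.0419). Within the sets both were lower in aCSF1R, by -1.05 and -1.67 for Maf and by -0.82 and -1.15 for Irf5 in the lower-sum and higher-sum libraries. Control 5 was the only lower-sum control and aCSF1R 8 the only higher-sum aCSF1R library. Csf2ra, the alpha chain of the GM-CSF receptor, was nearest to Maf (r = 0.987), ahead of Lactb (r = 0.986) and Apobec1 (r = 0.985). Among the genes nearest to Irf5 were Itgam (r = 0.989), an integrin chain of myeloid cells, and B3gnt8 (r = 0.988).

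Irf8, the factor of monocytes and of cross-presenting dendritic cells, showed no difference past the threshold. It was at 14.3, 55.1 and 25.8 TPM in control and at 53.8, 43.6 and 6.26 TPM in aCSF1R. The lower-sum libraries of the 2 groups lay side by side (55.1 against 53.8 and 43.6 TPM), while aCSF1R 8 had the lowest value of all 12 libraries. The log2 difference was -0.12 ± 0.76 (95% interval -1.79 to 1.55, adjusted p = 0.953) and -0.67 ± 0.35 with the set term (adjusted p = 0.812). Within the sets it was -0.18 in the lower-sum and -1.48 in the higher-sum libraries. The former rests on control 5 as the only control, the latter on aCSF1R 8 as the only aCSF1R library. Cnpy3 (r = 0.977), H13 (r = 0.967) and Esyt1 (r = 0.967) followed Irf8 most closely.

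Cebpb and Runx1 had group means in aCSF1R that were 93.3% and 151% of control, the latter the highest of the 8 factors. Cebpb was at 389, 216 and 296 TPM in control and at 209, 193 and 440 TPM in aCSF1R. Its high values were those of higher-sum libraries in both groups. The log2 difference was -0.16 ± 0.35 (95% interval -0.93 to 0.60), and with the set term its sign turned, to 0.055 ± 0.19. Runx1 was at 24.1, 54.2 and 27.2 TPM in control and at 65.6, 66.9 and 27.0 TPM in aCSF1R, at 0.56 ± 0.43 (95% interval -0.39 to 1.52) or 0.26 ± 0.18 with the term. These intervals allow changes of over 1.5-fold, in either direction for Cebpb and upward for Runx1. The genes nearest to Cebpb were Rpl32 (r = 0.924), a ribosomal protein gene, Wincr1 (r = 0.917) and Med31 (r = 0.915). Those nearest to Runx1 were Nrp2 (r = 0.969), Susd6 (r = 0.969) and its own relative Runx2 (r = 0.958).

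**Figure D3:**
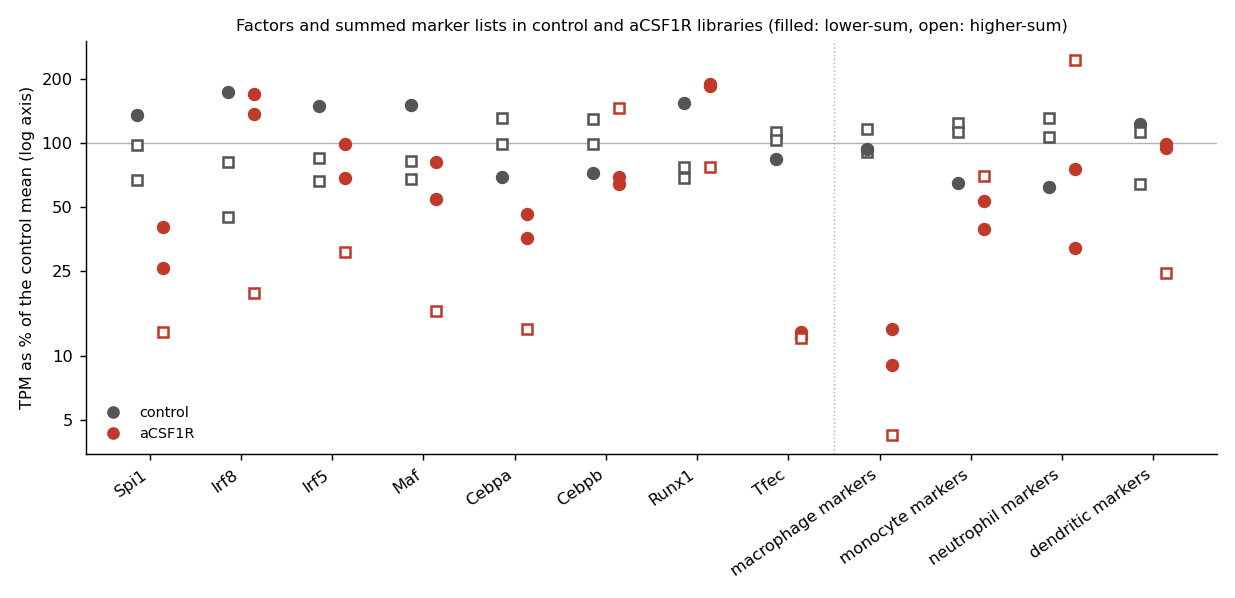
TPM in control (gray) and aCSF1R (red) libraries as a percentage of the control mean, on a log axis, for the 8 factors and for the summed levels of 4 marker lists; filled circles are lower-sum and open squares higher-sum libraries. Tfec is at 12.1% to 12.9% in aCSF1R and the macrophage markers at 4.22% to 13.3%, whereas Runx1 and Cebpb straddle 100%.

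Macrophage markers were lower in aCSF1R, as was Tfec, while the mean TPM of Irf8, Cebpb and Runx1 was not below 93.3% of control. For Irf8 the fitted log2 difference was nonetheless below 0, at -0.12 ± 0.76 and at -0.67 ± 0.35 with the set term. The means of Spi1, Cebpa, Maf and Irf5 were 26.4%, 31.8%, 50.8% and 65.9% of control. All 12 genes of a macrophage marker list had a log2 difference below 0 in aCSF1R against control, and 7 of them passed the threshold (Adgre1, C1qa, C1qb, C1qc, Fcgr1, Mrc1 and Msr1). Their summed level was 1807 to 2296 TPM in control, 1501 to 1704 in IL-10-Fc, 83.8 to 264 in aCSF1R and 1786 to 1858 in BF10, and none was at 0 in any library. The aCSF1R mean of the sum was 8.85% of control, below that of any of the 8 factors. Monocyte markers summed to 175 to 333 TPM in control and 107 to 189 TPM in aCSF1R, with 1 of 6 genes, Ccr2, lower past the threshold. Neutrophil markers summed to 866 to 1821 TPM and 447 to 3406 TPM, with 0 of 9 past it, and dendritic markers to 10.1 to 19.2 TPM and 3.83 to 15.5 TPM, with 0 of 6. None of 2 B cell, 6 T cell, 4 natural killer cell, 5 epithelial, 6 fibroblast, 4 endothelial and 4 adipocyte markers tested passed. With the set term 10 of 12 macrophage markers were lower, as were 2 of 6 monocyte markers (Ccr2 and F13a1, at -1.66 ± 0.35, adjusted p = 0.0351), 1 of 6 dendritic markers (Itgax, -1.55 ± 0.21, adjusted p = 0.00195) and 1 of 4 natural killer cell markers (Klrk1, -1.16 ± 0.20, adjusted p = 0.0105). The part of these cell types in the factors' levels was not tested.

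Set against the macrophage markers of the same library, every factor but Tfec had a higher ratio in all 3 aCSF1R libraries than in any control library. The macrophage sum itself averaged 8.85% of control in aCSF1R, so this ratio rises for any gene that fell less than the sum. How many of all tested genes behaved in this way was not counted, so the rise cannot be called particular to the factors. Spi1 was 1.29% to 2.52% of the macrophage sum in control and 4.99% to 5.33% in aCSF1R, and Irf5 was 0.650% to 1.43% and 6.51% to 6.77%. Runx1 was 1.19% to 2.93% in control and 24.8% to 37.3% in aCSF1R. Tfec was 0.370% to 0.513% in control and 0.382%, 0.595% and 1.19% in aCSF1R libraries 4, 6 and 8, so 2 of the 3 were above every control library. Irf8 was 0.790% to 2.98% and 7.47% to 24.3%. These ratios describe the libraries and carry no test.

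The relatives of the factors were read next. Of 27 family relatives (such as Cebpd, Runx2 and Mitf), 25 were tested and 0 passed in aCSF1R against control, with a median log2 difference of 0.34 beside 0.24 over all genes. The relative with the smallest unadjusted p was Spic, the factor of red pulp macrophages (-0.70 ± 0.34, adjusted p = 0.893). With the set term 2 of 25 were lower, among them Runx3 (-1.19 ± 0.25, adjusted p = 0.0373). The relatives of Tfec had means of 3.41 ± 2.13 and 3.99 ± 2.07 TPM for Mitf and of 9.92 ± 1.82 and 6.91 ± 0.817 TPM for Tfeb in control and aCSF1R, and neither passed in either fit.

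Among 24 other transcription factors known from myeloid cells, 23 were tested and 0 passed, with a median of 0.29. Ikzf1, a zinc finger factor of blood cells, had the smallest unadjusted p (-1.20 ± 0.55, adjusted p = 0.893) and was lower with the set term (-1.54 ± 0.33, adjusted p = 0.0401). It averaged 5.98 ± 2.63 TPM in control and 2.05 ± 1.14 TPM in aCSF1R. Its groups did not overlap, with 3.13 to 8.30 TPM in control and 0.781 to 2.99 TPM in aCSF1R.

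Genes known as targets of the 8 factors included several that fell. Of 21 such targets 20 were tested, and 6 were lower in aCSF1R past the threshold, with a median log2 difference of -1.34. Csf1r, the gene of the antibody's target and itself a target of PU.1, averaged 49.9 ± 38.3 TPM in control and 12 ± 9.85 TPM in aCSF1R and was lower with the set term (-2.89 ± 0.36, adjusted p = 0.00131) but did not pass without it (-2.21 ± 0.91, adjusted p = 0.893). The 6 were C1qa (-3.98 ± 0.37), C1qb (-3.47 ± 0.48) and C1qc (-4.05 ± 0.31), the chains of complement C1q, Msr1 (-3.75 ± 0.22), a scavenger receptor, Fcgr1 (-3.01 ± 0.27), an Fc receptor, and Tyrobp (-2.60 ± 0.38), a signalling adaptor. Of these 6, all but Tyrobp are also on the macrophage marker list. With the set term 12 of 20 were lower, among them Arg1 (-2.75 ± 0.31), Csf2ra (-2.16 ± 0.35), Itgam (-1.84 ± 0.32), Btk (-1.77 ± 0.22) and Cybb (-1.73 ± 0.31). Targets linked to granulocyte precursors did not follow: Elane, a neutrophil protease, averaged 1.16 ± 0.929 TPM in control and 2.01 ± 1.79 TPM in aCSF1R, and Mpo 2.12 ± 1.64 and 2.22 ± 1.11 TPM.

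**Figure D4:**
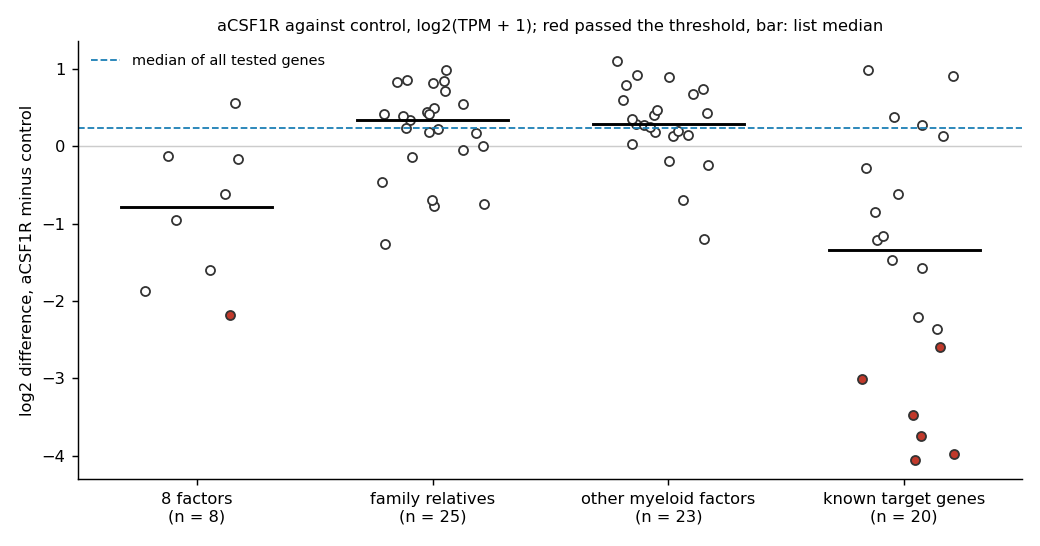
Log2 difference (aCSF1R minus control, log2(TPM + 1)) of each tested gene among the 8 factors, 25 family relatives, 23 other myeloid factors and 20 known target genes. Red points passed the threshold, black bars are list medians (-0.78, 0.34, 0.29 and -1.34), and the dashed line is the median of all tested genes at 0.24.

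The comparison of BF10 with aCSF1R asked what the added interleukin-10 part changed where both proteins carry the antibody. Spi1 and Tfec were higher in BF10, 2 of 8 factors beside 0.735% of all tested genes, and with the set term Irf5 and Maf were too, which made 4 of 8 beside 2.77%. The groups did not overlap for Spi1, Cebpa and Tfec, 3 of 8 beside 5.91% of all genes. Spi1 was at 99.7, 39.3 and 46.0 TPM in BF10 libraries 3, 6 and 7, a mean of 61.7 ± 33.1 TPM against 9.12 ± 4.73 TPM in aCSF1R. It differed by 2.62 ± 0.44 (adjusted p = 0.0205). Library BF10 3, the highest for Spi1, Irf5 and Maf, also had a neutrophil marker sum of 19200 TPM, where the other 11 libraries had 447 to 3406 TPM; without it the Spi1 difference was 2.22 with an adjusted p of 0.0973. The adjusted p was also above 0.05 without aCSF1R 6 (0.0851), aCSF1R 8 (0.0578) or BF10 7 (0.0649). The part of neutrophils in the Spi1 level was not tested.

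Tfec was at 7.32, 5.97 and 4.46 TPM in BF10, and the mean of 5.92 ± 1.43 TPM was above the 1.02 ± 0.0367 TPM of aCSF1R. The log2 difference was 1.75 ± 0.25 (adjusted p = 0.00833), and it was 1.61 without BF10 3 (adjusted p = 0.0514) and 1.77 without aCSF1R 6 (adjusted p = 0.0506); with median-of-ratios scaling the adjusted p was 0.0797. Maf was at 23.2, 7.24 and 12.8 TPM and Irf5 at 44.3, 15.3 and 33.0 TPM in BF10. Their differences were 1.45 ± 0.53 (adjusted p = 0.735) and 1.33 ± 0.49 (adjusted p = 0.776), with adjusted p of 0.00797 and 0.00342 under the set term. Cebpa was at 20.0, 23.8 and 12.6 TPM, at 1.46 ± 0.41 (adjusted p = 0.311, and 0.0797 with the term).

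Irf8 in BF10 was at 72.9, 28.4 and 76.5 TPM, and its difference of 1.08 ± 0.76 did not pass in either fit (adjusted p = 1 and 0.181). Cebpb was at 169, 290 and 238 TPM and Runx1 at 54.1, 29.6 and 62.8 TPM in BF10. Neither differed from aCSF1R past the threshold, with 95% intervals of -0.97 to 0.56 and -1.03 to 0.88. Among the listed genes, 6 of 20 targets, 7 of 12 macrophage markers, Ccr2 and Klrk1, a receptor of natural killer cells, were higher in BF10, while 0 of 25 relatives and 0 of 23 other factors were. With the set term 12 targets, 11 macrophage markers, 2 relatives (among them Runx3, 1.72 ± 0.25, adjusted p = 0.00225), Ikzf1 (adjusted p = 0.0108), Ccr2, Klrk1 and Itgax were higher. Ikzf1 (1.78 ± 0.55, adjusted p = 0.445) had the smallest unadjusted p of the other factors.

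**Figure D5:**
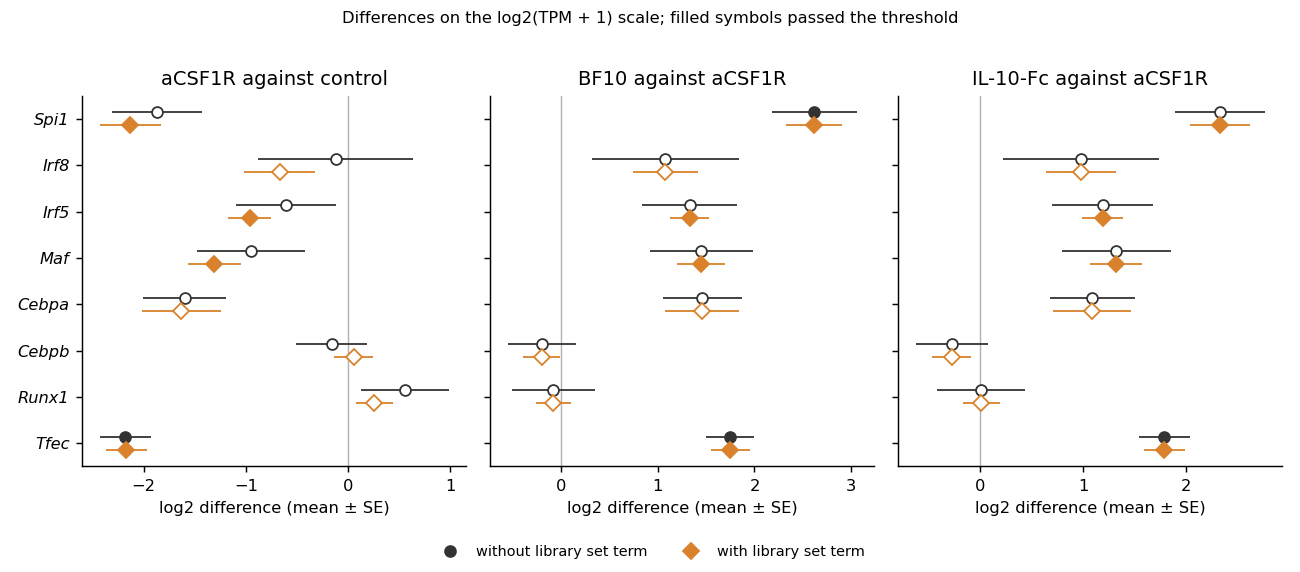
Log2 differences in log2(TPM + 1) of the 8 factors for aCSF1R against control and for BF10 and IL-10-Fc against aCSF1R, with bars of 1 SE, without (circles) and with (diamonds) the library set as a term. Filled symbols passed the threshold; Spi1 runs from -1.87 in the left panel to 2.62 in the middle one, and Cebpb and Runx1 stay near 0 in the middle and right panels. The panels share the aCSF1R libraries.

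IL-10-Fc was set against aCSF1R as the pair of single agents. Only Tfec was higher past the threshold, 1 of 8 factors beside 0.542% of all tested genes, and with the set term Spi1, Irf5, Maf and Tfec were, 4 of 8 beside 2.12%. The groups did not overlap for 5 of 8 factors, all but Irf8, Cebpb and Runx1, beside 7.49% of all genes. Tfec was at 6.77, 5.94 and 5.33 TPM in libraries 2, 4 and 7 of IL-10-Fc, a difference of 1.79 ± 0.25 (adjusted p = 0.0106). Its adjusted p rose to 0.0773, 0.0823 and 0.0546 without IL-10-Fc 2, 4 and 7, and to 0.0649 without aCSF1R 6. Spi1 had 46.6, 54.2 and 38.4 TPM in these libraries, a difference of 2.33 ± 0.44 with an adjusted p of 0.0528, and it passed without aCSF1R 4 (adjusted p = 0.0457) or BF10 3 (adjusted p = 0.0342).

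Irf5 and Maf, the factors of mature macrophages, lay above every aCSF1R library in all 3 libraries of IL-10-Fc. Irf5 was at 28.8, 31.4 and 18.4 TPM and Maf at 13.8, 14.1 and 8.21 TPM. Their differences were 1.19 ± 0.49 and 1.32 ± 0.53, with an adjusted p of 1 for both, and 0.00923 and 0.0189 with the set term. Cebpa was at 14.3, 15.5 and 12.1 TPM and Irf8 at 59.3, 66.2 and 32.8 TPM. Cebpb was at 194, 205 and 250 TPM and Runx1 at 56.1, 52.3 and 41.2 TPM. The difference was 1.09 ± 0.41 for Cebpa, 0.98 ± 0.76 for Irf8, -0.28 ± 0.35 for Cebpb and 0.0074 ± 0.43 for Runx1. None of these 4 passed in either fit, with adjusted p of 0.291, 0.29, 0.693 and 0.994 under the set term. Here 6 of 20 targets, 7 of 12 macrophage markers and Ccr2 were higher past the threshold, and 0 of 25 relatives and 0 of 23 other factors were. With the set term 12 targets, 11 macrophage markers, 2 relatives (among them Runx3, 1.46 ± 0.25, adjusted p = 0.00858), Ccr2, Klrk1 and Itgax were higher, and still 0 of 23 other factors.

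BF10 and IL-10-Fc were each compared with control, and none of the 8 factors passed. In BF10 the count was 0 of 8, beside 0% of all tested genes (0.00645% with the set term). There 234 of the 15504 genes had an unadjusted p below 0.05, and the smallest unadjusted p of a factor was 0.117, for Tfec. In IL-10-Fc the count was 0 of 8 beside 0.00645% (0.0258% with the term). There 224 genes had an unadjusted p below 0.05, and the smallest unadjusted p of a factor was 0.148, also for Tfec. Both counts were below the 0.05 share of tested genes that evenly spread p-values would give. The largest differences of BF10 were those of Irf8 (0.96 ± 0.76, 95% interval -0.71 to 2.63) and Spi1 (0.75 ± 0.44, -0.23 to 1.73). Those of IL-10-Fc were Irf8 (0.86 ± 0.76, -0.81 to 2.53) and Irf5 (0.58 ± 0.49, -0.51 to 1.67). The median of all tested genes was 0.32 in BF10 and 0.35 in IL-10-Fc, and 0.068 and 0.10 with the set term. Irf8 was then at 0.41 ± 0.35 and 0.32 ± 0.35.

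Tfec was the factor with the narrowest intervals in these comparisons. Its difference was -0.43 ± 0.25 in BF10 (95% interval -0.99 to 0.13) and -0.40 ± 0.25 in IL-10-Fc (-0.96 to 0.16), and the group means were 71.7% and 72.9% of control. Cebpa was at 90.4% and 67.1% of the control mean and Cebpb at 77.2% and 72.0%. The intervals of all 8 factors included 0 and, in at least 1 direction, changes of over 1.5-fold. Among the family relatives, the genes with the smallest unadjusted p were Cebpe, a granulocyte factor, at 1.24 ± 0.68 in BF10 (adjusted p = 0.788), and Irf1, an interferon-responsive factor, at 0.97 ± 0.48 in IL-10-Fc (adjusted p = 0.738). Cebpe was at 0.869 to 17.3 TPM in BF10 and at 0.707 to 1.13 TPM in control, so the lowest BF10 library lay within the control range.

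BF10 and IL-10-Fc, which share the interleukin-10 part and differ in the antibody, did not differ past the threshold in any of the 8 factors. That was 0 of 8 beside 0% of all tested genes in both fits. Of the 15504 genes, 42 had an unadjusted p below 0.05, again below a 0.05 share. The smallest unadjusted p of a factor was 0.392, for Cebpa. The difference for Tfec was -0.036 ± 0.25 (95% interval -0.60 to 0.52), which allows a change of up to about 1.5-fold. For Spi1 it was 0.29 ± 0.44 (-0.69 to 1.27), for Cebpa 0.37 ± 0.41 (-0.54 to 1.28) and for Irf8 0.10 ± 0.76 (-1.57 to 1.77). These intervals leave room for differences larger than 1.5-fold, in both directions for Spi1 and Irf8 and upward for Cebpa.

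By group, the means thus ran in different orders. Spi1 was at 61.7 ± 33.1 TPM in BF10, 46.4 ± 7.88 in IL-10-Fc, 34.5 ± 11.8 in control and 9.12 ± 4.73 in aCSF1R, and only the last group stood below its neighbor without overlap. Tfec was at 8.25 ± 1.17 TPM in control, 6.01 ± 0.724 in IL-10-Fc, 5.92 ± 1.43 in BF10 and 1.02 ± 0.0367 in aCSF1R. The aCSF1R libraries lay below all others, and control (6.97 to 9.26 TPM) did not overlap with IL-10-Fc (5.33 to 6.77 TPM), a difference that did not pass. The share of all tested genes without overlap between control and IL-10-Fc is not given, so nothing is read from this separation. Runx1 had its highest mean in aCSF1R, at 53.2 ± 22.7 TPM, and its lowest in control, at 35.2 ± 16.6 TPM, with overlapping libraries in all groups. Cebpb was at 280 ± 138 TPM in aCSF1R, between 217 ± 29.7 TPM in IL-10-Fc and 301 ± 86.7 TPM in control.

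In the genome (build GRCm38, GENCODE M21), the genes lie on 5 chromosomes. Spi1 (ENSMUSG00000002111) is at chr2:91082390-91115756 on the plus strand with 7 exon blocks, and Tfec (ENSMUSG00000029553) at chr6:16833373-16898441 on the minus strand with 7. Irf5 (chr6:29526625-29541871) shares a chromosome with Tfec, Cebpb (chr2:167688915-167690418) with Spi1, and Irf8 (chr8:120736358-120756694) with Maf (chr8:115682942-115707794). Cebpa (chr7:35119293-35121928) and Cebpb have 1 exon block each, and Runx1 (chr16:92601466-92826149) has 9. The longest coding transcript ran from 1504 bases in Cebpb to 6360 in Maf, with 67.2% and 47.4% G and C.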

How the data were processed

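Bulk RNA of 12 tumors was sequenced from stranded libraries of polyadenylated RNA on an Illumina NextSeq and aligned to mm10 with the annotation GRCm38.101, per the study's methods. The submitters' processing notes list STAR 2.7.5a, RSEM 1.3.3 and DESeq2 1.28.0. The authors deposited FPKM values with 2 decimals for 55401 genes; further deposited tables hold the authors' own comparisons (log2 fold changes, p-values) and were not used. All 12 columns matched a sample by name.

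FPKM values were divided by the sum of their library and set to a total of 1000000 (TPM). Genes that reached 1 TPM in 3 or more libraries were tested on log2(TPM + 1) with limma 3.58.1 (eBayes with trend, R 4.3.3), 1 mean per group over all 12 libraries, 8 residual degrees of freedom. All adjusted p-values are limma's with Benjamini-Hochberg adjustment. The fit was checked on simulated data. The library sets, the 8 factors and the gene lists were chosen with earlier results of these data known. Named are all 8 factors, list genes past the threshold or else that with the smallest unadjusted p, and the 3 nearest genes of each factor, except for items that are not reported here; Mitf, Tfeb, Elane, Mpo, Csf1r and Cebpe levels were added as examples after their values were seen. Alternatives were another pseudocount, scaling, filter, set of libraries, weights, a replicate block, the library set term and leaving out each library.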

Additional observations from a re-analysis of the deposited data

How the results depend on the processing

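Tfec stayed lower in aCSF1R than in control past the threshold in 18 of 21 alternatives. The number of the 8 factors past the threshold moved as follows. In aCSF1R against control (1) it was 2 with FPKM not rescaled, 2 with median-of-ratios scaling, 4 with the library set as a term, 6 with sample quality weights (4 lower; Irf8 and Runx1 higher), and 0 with only the groups compared, with only the lower-sum libraries or with the replicate block. In BF10 against aCSF1R (2) it was, among other settings, 1 without the filter on low values and 4 with the set term. It was 0 with only the groups compared, only the lower-sum libraries or the block, and 0 to 2 when single libraries were left out. In this comparison Irf5 passed in 3 and Maf in 2 of 21 alternatives, neither with a single library left out. In IL-10-Fc against aCSF1R (1) it was 2 with FPKM, 4 with the set term, 5 with weights, 0 with only the groups compared, only the lower-sum libraries or the block, and 0 to 2 when single libraries were left out. For control against BF10 and against IL-10-Fc (0 each) it was 7 and 7 with weights, in both directions, which gave IL-10-Fc 4 a weight of 61.7 and aCSF1R 8 a weight of 0.0736 and whose estimation stopped before convergence. Fits on fewer libraries had fewer residual degrees of freedom; the cause of the other moves was not tested.

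The replicate block left 2 residual degrees of freedom. Of 7 pairs of libraries with the same number, 2 had correlated deviations above 0.1 (r = -0.663 to 0.417). These 2 pairs (r = 0.349 and 0.417) lay within the same library set, and every pair across sets had a negative r. Because the values followed the library set, they cannot tell whether the numbers pair the tumors. The read depth behind the FPKM values is unknown.

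Signs turned, among differences not past the threshold in the reported fit, as follows (log2). In aCSF1R against control, Irf8 was 1.20 with weights and 1.75 with the block, Irf5 0.13 and 0.50, Maf 0.088 with the block, and Cebpb 0.055 with the set term. In BF10 against control Cebpa was 0.13 with lower-sum libraries only. In IL-10-Fc against control Maf was -0.033 with median-of-ratios scaling, and with lower-sum libraries only Maf was -0.0055, Cebpa 0.039 and Runx1 -0.0017. In BF10 against aCSF1R Irf8 was -0.13 with the block and Cebpb 0.13 with weights and 0.45 with the block. In IL-10-Fc against aCSF1R Irf8 was -0.51 with the block, Cebpb 0.0024 with weights and 0.25 with the block, and Runx1 -0.022 with FPKM, -0.19 with median-of-ratios scaling, -0.32 with weights, -0.29 with lower-sum libraries only and -0.80 with the block. In BF10 against IL-10-Fc Spi1 was -0.0039, Maf -0.0018, Cebpa -0.092 and Runx1 0.16 with weights, Runx1 0.10 with lower-sum libraries only and 0.12 with the block, and Tfec 0.026 with median-of-ratios scaling.

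With single libraries left out, signs turned within these ranges. In aCSF1R against control Irf8 ran from -0.66 to 0.80 and Cebpb from -0.54 to 0.052, and in BF10 against control Cebpa from -0.37 to 0.11. In BF10 against aCSF1R Cebpb ran from -0.42 to 0.18 and Runx1 from -0.50 to 0.24, and in IL-10-Fc against aCSF1R Cebpb from -0.49 to 0.10 and Runx1 from -0.41 to 0.23. In BF10 against IL-10-Fc Spi1 ran from -0.11 to 0.55, Irf8 from -0.20 to 0.55, Irf5 from -0.17 to 0.56, Maf from -0.26 to 0.52, Cebpb from -0.10 to 0.29, Runx1 from -0.30 to 0.23 and Tfec from -0.18 to 0.12.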
